A study of Mus musculus with 6 samples.

Results

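Expression of 9 genes of retinoid synthesis, binding, breakdown and reception was examined in astrocytes of the mouse somatosensory cortex. The genes are Rdh10, Aldh1a1, Aldh1a2, Crabp1, Cyp26b1, Rara, Rarb, Rxra and Rxrb. They were taken by symbol from the deposited expression table, in which each of the 9 has 1 row among 43383 rows. GFP-positive cells had been sorted from 4-week-old male mice of genotype Aldh1l1-eGFP, in which the promoter of an astrocyte enzyme gene drives GFP. Upper-layer astrocytes (ULAs) came from tissue of layers II to IV and deep-layer astrocytes (DLAs) from layers V and VI. Meninges, layer I, corpus callosum and part of the border between layers IV and V had been discarded. There were 3 libraries for each layer, 1 from each of 3 brains, and no treatment or mutation besides the GFP transgene that both groups carry. Values are RPKM, that is, reads scaled to the length of the mRNA and to the depth of the library, so levels can be compared between genes.

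Retinoic acid is made from vitamin A (retinol) in 2 steps. Retinol dehydrogenases, of which RDH10 is the main one in the embryo, oxidize retinol to retinal, and retinal dehydrogenases of the ALDH1A family oxidize retinal to retinoic acid. CRABP1 holds retinoic acid in the cytosol, and CYP26B1 breaks it down. In the nucleus retinoic acid binds receptors of the RAR family, which act on DNA as pairs with receptors of the RXR family. In the brain the meninges are a well-known source of ALDH1A2, and retinoic acid is known for its part in cortical development and synaptic plasticity.

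The Rarb promoter is a textbook site of retinoic acid action, and Cyp26b1 is another gene that retinoic acid induces in many cells. Both promoters are therefore shown, as the 250 bases before the RefSeq transcription start, on build GRCm38.p6. A pair of direct repeats with a spacer of 5 bases, to which RAR and RXR bind, is given in capitals.
Rarb promoter, minus strand of chr14:16575477-16575726: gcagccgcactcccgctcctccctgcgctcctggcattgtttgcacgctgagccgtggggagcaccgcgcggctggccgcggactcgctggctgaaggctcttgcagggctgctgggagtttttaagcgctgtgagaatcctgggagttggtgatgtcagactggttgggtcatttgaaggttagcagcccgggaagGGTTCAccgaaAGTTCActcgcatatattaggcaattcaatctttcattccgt
Cyp26b1 promoter, minus strand of chr6:84593811-84594060: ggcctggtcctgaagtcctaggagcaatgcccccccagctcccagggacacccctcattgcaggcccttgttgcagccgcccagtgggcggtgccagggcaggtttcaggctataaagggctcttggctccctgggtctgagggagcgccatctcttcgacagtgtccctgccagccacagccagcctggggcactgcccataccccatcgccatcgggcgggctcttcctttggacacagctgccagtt
The Rarb repeat lies from 53 to 37 bases before the start, and Cyp26b1 has no such repeat in this window.

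The 9 genes fell into a detected set of 6 and a set of 3 at or near 0 in all 6 libraries. The levels of Aldh1a1, Rxrb, Rdh10, Rarb, Rara and Rxra averaged 15.0, 14.9, 10.1, 7.07, 1.90 and 1.02 RPKM over the 6 libraries, in this order. Neighbours in this order had overlapping ranges, except Rarb over Rara and Rxra over Cyp26b1, where every library of the first was above every library of the second. Aldh1a1 and Rxrb could not be ordered, since Aldh1a1 was the higher in 2 of 6 libraries. Among the 13999 rows with a mean of at least 1 RPKM, 65.8% had a lower level than Aldh1a1, 45.8% a lower level than Rarb and 13.3% a lower level than Rara, so these genes sat in the middle or the lower part of the range. Rxra was just above the limit of 1 RPKM. The steps between low values gave a depth of 24450000 to 26701000 reads in ULAs and 19657500 to 29557500 reads in DLAs, and the 6 detected genes rested on 102 to 1154 reads per library.

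**Figure D1:**
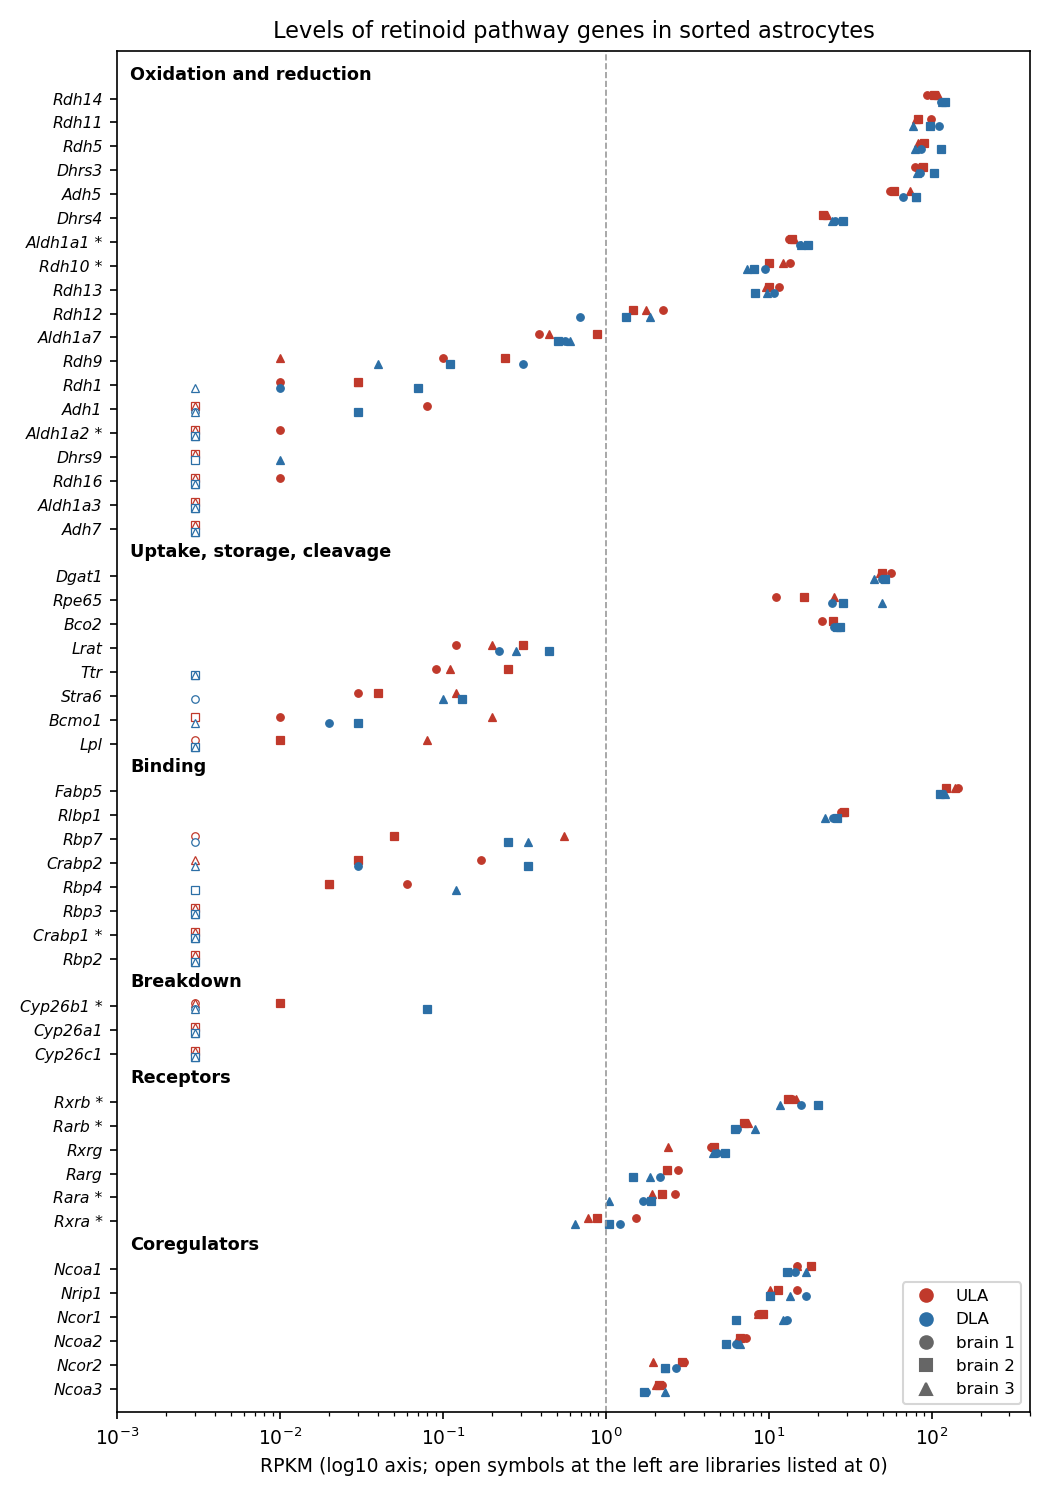
RPKM of the 9 genes (asterisks) and of 41 other genes of the retinoid pathway in each library, on a log10 axis, by role. Red symbols are ULAs, blue symbols DLAs, and shapes the 3 brains; open symbols at the left are libraries listed at 0, where symbols lie over each other, and the dashed line marks 1 RPKM. Aldh1a2, Crabp1 and Cyp26b1 stand at the left, and the other 6 of the 9 genes near or above the line.

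No gene of the 9 passed the test for a difference between layers. The comparison asks whether astrocytes of upper and deep layers differ in expression, and was made over all 13999 rows with limma on log2(RPKM + 1), with brain and layer as terms and with 2-sided p-values that were adjusted after Benjamini and Hochberg over all rows. This scale understates the fold change of low genes. Of the 6 genes that entered the test, 0 had an adjusted p under 0.05, against 1.63% of all rows tested (0.714% higher in ULAs and 0.914% higher in DLAs). An unadjusted p under 0.05 was found for 2 of the 6, Rdh10 and Rara, against 16.4% of all rows. For Rara it did not stay under 0.05 in all alternative settings, as given below. The layers did not overlap for 3 of the 6, against 15.9% of all rows. Rdh10 and Rara were higher in ULAs without overlap, as were 6.59% of all rows tested, and Aldh1a1 was higher in DLAs without overlap, as were 9.27% of all rows tested. The median log2 fold change (ULA/DLA) of the 6 genes was 0.06, and that of all rows tested was -0.03. With 3 brains an adjusted p over 0.05 does not show that levels were equal. In simulated data this test recovered 0% of 200 genes changed by 0.5 on the log2 scale. The largest change of the 6 was smaller, at 0.47 for Rdh10. Intervals are therefore given below.

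**Figure D2:**
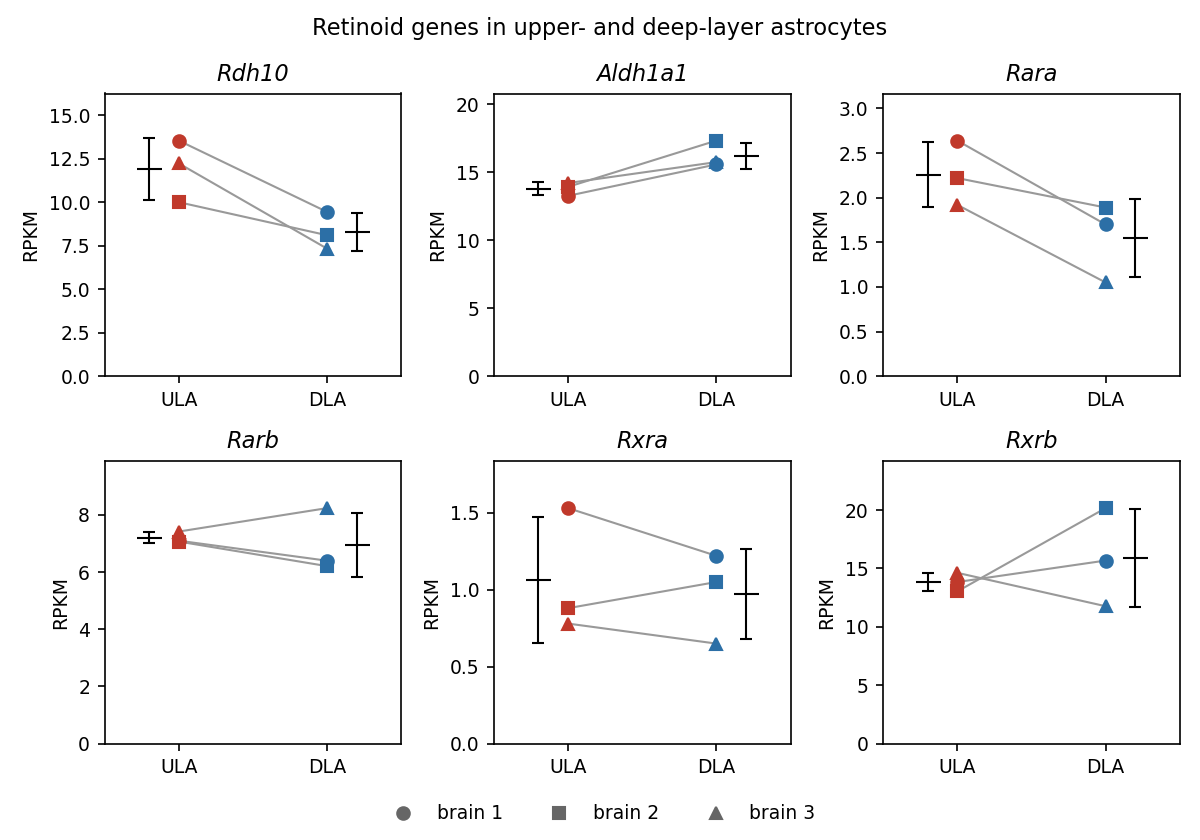
RPKM in ULAs (red) and DLAs (blue) of the 6 detected genes, with a line joining both libraries of a brain and the mean ± SD of the 3 libraries of a layer in black. The y axes start at 0 and differ in scale. All 3 lines fall from ULAs to DLAs for Rdh10 and Rara, all 3 rise for Aldh1a1, and the lines of Rarb, Rxra and Rxrb go both ways.

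Rdh10, whose enzyme takes the step from retinol to retinal, had the largest layer difference of the 6 on the log2(RPKM + 1) scale. With a pseudocount of 0.1 the log2 fold change was larger for Rara (0.55) than for Rdh10 (0.52). Its row covers 6 exons on the plus strand of chr1:16095963-16122631 of mm9, the build in the submitters' processing notes. In ULAs, Rdh10 measured 13.54 RPKM in brain 1, 10 RPKM in brain 2 and 12.23 RPKM in brain 3, and in DLAs 9.44, 8.10 and 7.33 RPKM in this order of brains. The lowest ULA value thus lay above the highest DLA value, by 0.56 RPKM. The means were 11.9 ± 1.79 RPKM in ULAs and 8.29 ± 1.07 RPKM in DLAs (SD, n = 3), and the ULA/DLA ratio of RPKM was 1.43, 1.23 and 1.67 in brains 1, 2 and 3. On the log2 scale the layers differed by 0.47 (SE 0.13, 95% interval 0.19 to 0.76), with a limma p of 0.00393 before adjustment and an adjusted p of 0.105. Among all rows tested, 4.84% had a log2 fold change at least as large in either direction. Rdh10 rested on 366 to 760 reads per library, a counting error of 3.63% to 5.23%, which is smaller than the difference in each brain. Counting error leaves out variation from dissection, sorting and amplification, so it cannot tell a layer difference from a library difference. In bulk RNA such as this, fewer cells with the mRNA and less mRNA per cell cannot be told apart.

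Aldh1a1, the retinal dehydrogenase of these cells, went the other way by a smaller amount. Its row has 13 exons on chr19:20676472-20717952 (mm9, plus strand). Its ULA values were 13.26, 13.92 and 14.20 RPKM for brains 1 to 3, and its DLA values 15.57, 17.32 and 15.74 RPKM. All 3 DLA libraries were above all 3 ULA libraries, by at least 1.37 RPKM. The means were 13.8 ± 0.483 RPKM in ULAs and 16.2 ± 0.965 RPKM in DLAs (SD, n = 3), with ratios of 0.852, 0.804 and 0.902 in brains 1, 2 and 3. The log2 fold change was -0.22 (SE 0.11, 95% interval -0.47 to 0.03, adjusted p = 0.363, limma), so the interval reaches from a DLA level 1.38 times that of ULAs to just past no difference. A near-identical neighbour gene, Aldh1a7, was at 0.39 to 0.88 RPKM, and reads of the pair could have been assigned to either row.

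The other retinal dehydrogenase among the 9, Aldh1a2, was practically not detected. Its row (chr9:71063596-71144050, mm9) was at 0.01 RPKM in the ULAs of brain 1, which corresponds to 1 read, and at 0 in the other 5 libraries. A count of 0 allows up to 3 reads, which would be 0.0448 to 0.0674 RPKM here. The third gene of this enzyme family, Aldh1a3, was listed at 0 in all 6 libraries. Among Aldh1a1, Aldh1a2 and Aldh1a3, Aldh1a1 thus gave nearly all of the mRNA in both layers, apart from reads that may belong to Aldh1a7.

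Crabp1, the cytosolic binding protein, was at 0 RPKM in all 6 libraries (chr9:54612615-54620916, mm9). Its mRNA of 741 bases is short, so the 3 reads that a count of 0 allows would be 0.137 to 0.206 RPKM. The related Crabp2 reached at most 0.33 RPKM, in the DLAs of brain 2. Cyp26b1, the retinoic acid hydroxylase, was at 0.01 RPKM in the ULAs of brain 2 (2 reads), at 0.08 RPKM in the DLAs of brain 2 (8 reads) and at 0 in the other 4 libraries. Because the values were truncated, a Cyp26b1 row at 0 can hold 1 read. The 8 reads came from a single library, and the DLAs of brains 1 and 3 had at most 1 read each. Cyp26a1 and Cyp26c1, the other hydroxylases of the family, were listed at 0 in all 6 libraries, so that no retinoic acid hydroxylase of this family exceeded 0.08 RPKM.

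All 4 of the receptor genes among the 9 were detected. Rara, the receptor of widest expression in the body, has 12 exons on chr11:98799010-98836256 (mm9) and measured 2.64, 2.22 and 1.92 RPKM for brains 1 to 3 in ULAs, against 1.70, 1.89 and 1.05 RPKM in DLAs. ULA and DLA values came within 0.03 RPKM of each other without overlapping. The means were 2.26 ± 0.362 and 1.55 ± 0.440 RPKM (SD, n = 3), and Rara was higher in ULAs in 3 of 3 brains, with ratios of 1.55, 1.17 and 1.83. Its log2 fold change was 0.37 (SE 0.16, 95% interval 0.02 to 0.71, adjusted p = 0.28, limma). Rara rested on 129 to 267 reads per library, with a counting error of 6.12% to 8.80%.

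Rarb, whose promoter is shown above, was the most abundant receptor of the RAR family in every library. It was at 7.10, 7.07 and 7.42 RPKM in ULAs and at 6.40, 6.21 and 8.24 RPKM in DLAs, in the order of brains 1, 2 and 3 (chr14:17263354-17407724, mm9, minus strand). The ULA values were close together and lay inside the range of the DLA values, in which brain 3 was highest. For Rarb the log2 fold change was 0.05 (SE 0.13, 95% interval -0.23 to 0.34, adjusted p = 0.876, limma), and the interval excludes a ULA level over 1.27 times and a DLA level over 1.18 times that of the other layer, on this scale.

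Rxra was at 1.53, 0.88 and 0.78 RPKM in ULAs and at 1.22, 1.05 and 0.65 RPKM in DLAs of brains 1 to 3 (chr2:27532721-27618839, mm9). Brains differed more than layers, and brain 3 was lowest in both layers. Rxra had a log2 fold change of 0.06 (SE 0.16, 95% interval -0.31 to 0.42, adjusted p = 0.895, limma). Rxrb was at 13.84, 13.04 and 14.63 RPKM in ULAs and at 15.68, 20.17 and 11.77 RPKM in DLAs (chr17:34168757-34175348, mm9). The DLAs spread on both sides of the ULAs, being higher in brains 1 and 2 and lower in brain 3. The SD of Rxrb was 0.795 RPKM in ULAs and 4.20 RPKM in DLAs, and its log2 fold change was -0.16 (SE 0.16, 95% interval -0.51 to 0.20, adjusted p = 0.667, limma). Without brain 2, whose DLA library is the least deep, the log2 fold change of Rxrb was 0.06, so that its direction rested on that brain.

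Each receptor family was dominated by its beta member. Of the summed RPKM of Rara, Rarb and Rarg, Rarb took 56.7% to 63.4% in ULAs and 62.5% to 73.9% in DLAs. Rara took 16.4% to 21.1% in ULAs and 9.4% to 19.7% in DLAs, and Rarg 20.2% to 22.2% and 15.4% to 20.9%. Of the summed RPKM of Rxra, Rxrb and Rxrg, Rxrb took 70.0% to 82.1% in ULAs and 69.3% to 75.7% in DLAs, and Rxra at most 7.7%. The RAR sum was 11.66 to 12.52 RPKM in ULAs and 9.57 to 11.15 RPKM in DLAs, and the RXR sum 17.81 to 19.77 and 16.99 to 26.64 RPKM. RXR mRNA therefore exceeded RAR mRNA in all 6 libraries.

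**Figure D3:**
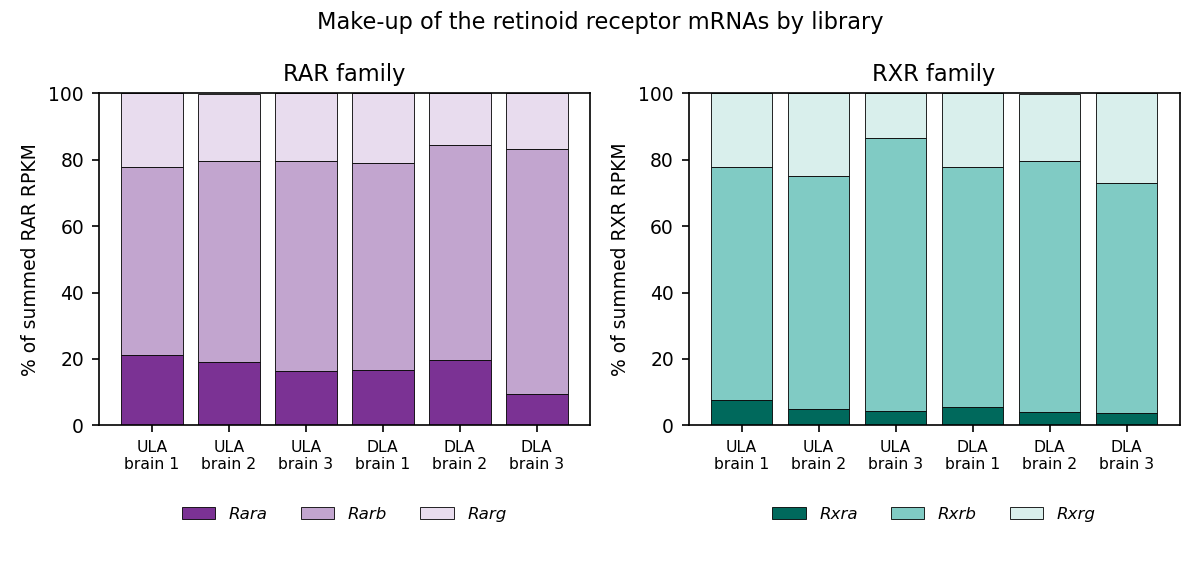
Share of each gene in the summed RPKM of the RAR family (left) and the RXR family (right), in percent, with 1 bar for each library. Rarb takes 56.7% to 73.9% of the RAR bars and Rxrb 69.3% to 82.1% of the RXR bars.

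The other genes of the pathway were taken from a list of 42, of which 22 had a mean of at least 1 RPKM. Of these 22, 0 passed as higher in ULAs and 1, Rpe65, as higher in DLAs, while 3 had an unadjusted p under 0.05, against 16.4% of all rows tested. Their median log2 fold change was -0.02 against -0.03 for all rows tested. Several enzymes that interconvert retinol and retinal were far more abundant than Rdh10. Rdh14 had 102 ± 7.43 RPKM in ULAs and 116.4 ± 3.19 RPKM in DLAs (SD, n = 3; adjusted p = 0.353, limma). For Rdh11 the means were 87.6 ± 10.4 and 94.8 ± 17 RPKM (adjusted p = 0.656), and for Rdh5 86.5 ± 3.27 and 93.1 ± 18.6 RPKM (adjusted p = 0.733). Of the 8 tested genes of this role besides the 9, 6 had a log2 fold change below 0, opposite to that of Rdh10, and none of them passed. The median of all rows tested was below 0 too, so this count does not set the role apart.

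Rpe65, best known as the retinoid isomerase of the eye, measured 11.09, 16.53 and 25.15 RPKM for brains 1 to 3 in ULAs, against 24.35, 28.64 and 49.58 RPKM in DLAs. DLAs were higher in each of the 3 brains, although the ULAs of brain 3 overlapped with the DLAs of brain 1. The difference on the log2 scale was -0.93 (SE 0.11), with an adjusted p of 0.00378 from limma. It rested on the comparison within brains, and without the brain in the model the adjusted p was 0.412. With rows of low RPKM kept in, it was 0.285. Oligodendrocyte markers moved with Rpe65. Their 9 genes had sums of 93.1, 89.2 and 185.1 RPKM for brains 1 to 3 in ULAs, against 181.3, 207.8 and 289.4 RPKM in DLAs, and all 8 that were tested had a log2 fold change below 0, 6 of which passed. Their part in the difference of Rpe65 was not tested.

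Among the binding proteins, Fabp5, a fatty acid binding protein that also carries retinoic acid, averaged 135.8 ± 11.2 RPKM for ULAs and 116.0 ± 4.72 for DLAs, a log2 fold change of 0.22 with a limma adjusted p of 0.283. Rlbp1, a retinal binding protein, averaged 28.4 ± 0.660 and 24.4 ± 2.08 RPKM, a log2 fold change of 0.21 with an adjusted p of 0.357. For both genes all 3 ULA libraries were above all 3 DLA libraries, as for 6.59% of all rows tested. Among the other tested pathway genes outside the 9, Rarg separated in the same direction. Rdh14, Dhrs4 and Bco2 separated with DLAs higher, as did 9.27% of all rows tested. Among receptors outside the 9, Rarg had 2.50 ± 0.240 RPKM in ULAs and 1.82 ± 0.337 in DLAs, and Rxrg 3.8 ± 1.22 and 4.94 ± 0.436 RPKM, with log2 fold changes of 0.32 and -0.34 and adjusted p-values of 0.324 and 0.315. Of the genes for uptake, storage and cleavage, Dgat1 (51.2 ± 4.43 and 48.4 ± 3.78 RPKM) and Bco2 (23.6 ± 2.19 and 26.3 ± 1.09 RPKM) came with Rpe65 as the most abundant. Of the coregulators, Ncoa1 (16.0 ± 1.83 and 14.8 ± 2.06 RPKM), Nrip1 (12.2 ± 2.47 and 13.6 ± 3.39) and Ncor1 (8.80 ± 0.372 and 10.5 ± 3.61) did. Ncoa1 and Ncor1 overlap rows on the opposite strand in the table, so some of their reads may belong to those.

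**Figure D4:**
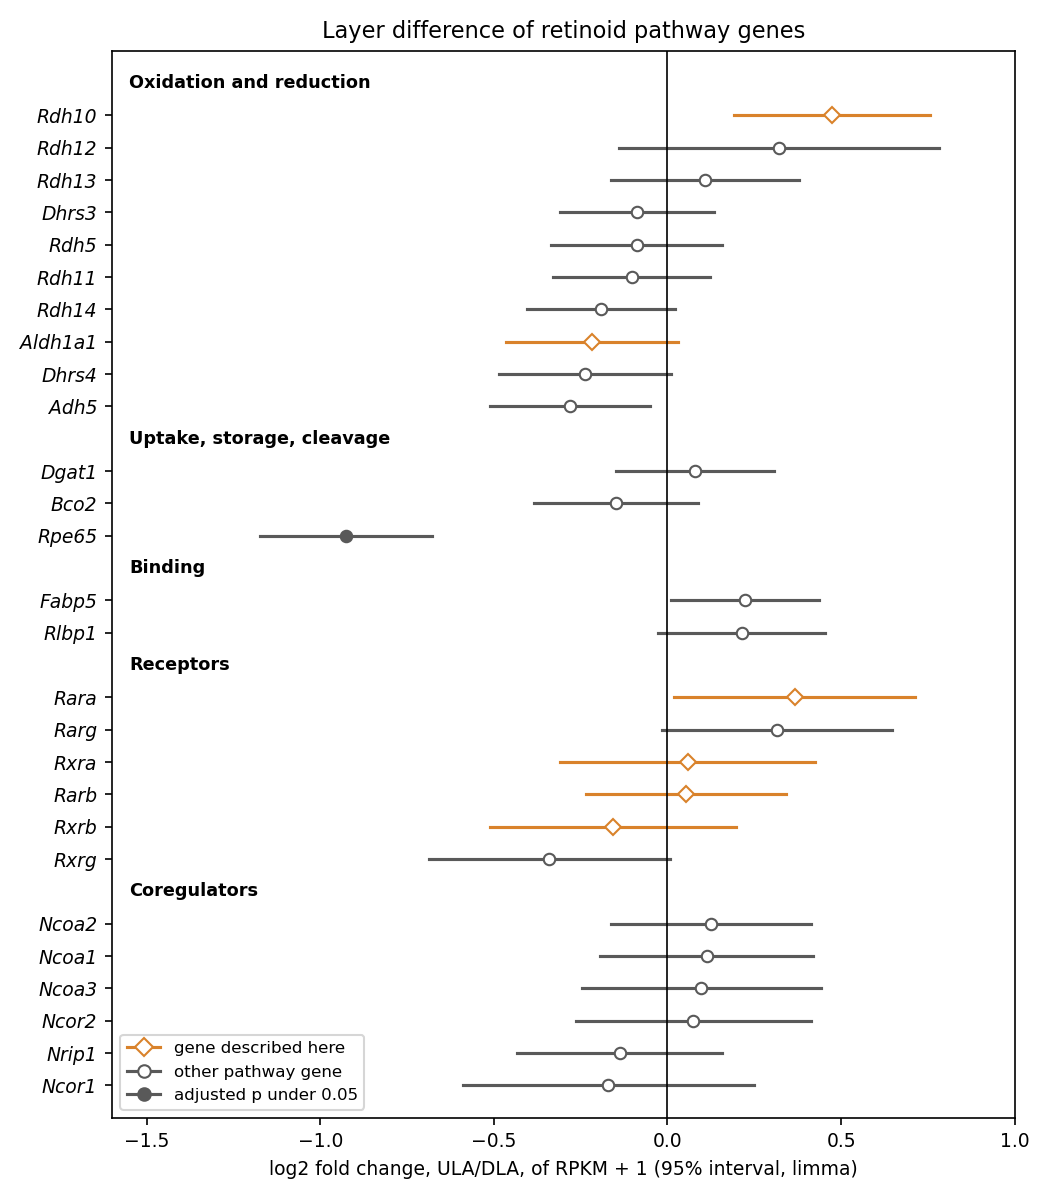
Log2 fold change (ULA/DLA) of RPKM + 1 with its 95% interval from limma, for the 6 tested genes of the 9 (orange diamonds) and 21 other pathway genes (grey circles), by role. The filled circle is Rpe65, at -0.93, the gene that passed the test, and the open symbols did not pass.

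Astrocyte markers were high in every library, with 10 genes summing to 11724 to 12700 RPKM in ULAs and 11042 to 11834 in DLAs. Marker sums of other cells ranged from under 1 RPKM (choroid plexus and ependyma) to 289.4 RPKM (oligodendrocytes, DLAs of brain 3). Whether such cells brought retinoid mRNA along was not tested. The 9 meningeal fibroblast genes summed to 3.11 to 4.12 RPKM in ULAs and 4.98 to 6.29 in DLAs, almost all of it Col1a1 and Col1a2, and Col3a1, Slc6a13 and Foxd1 were at 0 in all libraries. The 10 neuronal genes summed to 7.29 to 7.68 RPKM in ULAs and 5.27 to 7.90 in DLAs, and the 8 endothelial genes to 1.72 to 2.21 and 0.74 to 6.30 RPKM. Pericyte and smooth muscle genes (7) summed to 16.1 to 23.1 RPKM in ULAs and 11.9 to 19.0 in DLAs, of which Pdgfrb gave the most, with Kcnj8 at no more than 0.02 RPKM and Abcc9 at 0. Rgs5 of this list passed as higher in ULAs. Microglial genes (7) summed to 13.6 to 14.7 RPKM in ULAs and 8.95 to 12 in DLAs, mostly P2ry12. Microglial sums did not overlap between layers and were higher in ULAs, like Rdh10 and Rara, and meningeal, oligodendrocyte (sums given above), oligodendrocyte precursor (80.4 to 91.3 and 87.5 to 126 RPKM) and red blood cell sums (0.94 to 1.79 and 15.3 to 76.7 RPKM) were higher in DLAs on average, like Aldh1a1. Their part in these differences was not tested. Choroid plexus and ependymal genes stayed under 1 RPKM in sum. Lists of upper-layer and deep-layer neurons summed to 155 to 172 and 45.6 to 48.4 RPKM in ULAs and to 131 to 187 and 38.9 to 56.5 RPKM in DLAs, of which Rorb and Sox5 gave the largest part.

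The gene whose values over the 6 libraries were most like those of Rdh10 was Cyp4f15, a cytochrome P450 of the fatty acid hydroxylase family, with Pearson's r of 0.99 on the log2(RPKM + 1) scale. AI464131 and Sec16a followed with r of 0.988 and 0.987. These are the highest of 11474 rows with a RefSeq accession, over 6 points that share brains and libraries, and are given as a description. Cyp4f15 measured 305.5, 237.9 and 269.7 RPKM for brains 1 to 3 in ULAs and 231.4, 194.8 and 191.4 RPKM in DLAs, so that it shared with Rdh10 the high ULA level of brain 1 and the low DLA levels of brains 2 and 3.

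Promoters of RefSeq on GRCm38.p6 were at hand for 8 of the 9 genes, 14 promoters in all, and not for Rdh10. Direct repeats of the motifs AGGTCA and AGTTCA or of their variants GGGTCA and GGTTCA, in any combination, with a spacer of 1, 2 or 5 bases, were searched on both strands in the 300 bases from 250 before to 50 after each start. The Rarb repeat shown above, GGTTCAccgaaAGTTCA, was the one match among the 14 promoters, at chr14:16575513-16575529. A spacer of 5 was found in 0.0974% of all 32851 promoters, a spacer of 1 in 0.222% and a spacer of 2 in 0.268%. Of the genes with a spacer of 5, just Rarb and Blvrb were among the rows tested, and neither passed. In base composition the detected and undetected genes were mixed. The promoters of the undetected Aldh1a2 and Crabp1 had 77.6% and 63.6% G or C in the 250 bases before the start, and both Aldh1a1 promoters 42.8% and 46.4%, with 3 and 1 CpG, against a median of 52.4% and 6 CpG over all promoters. The undetected Cyp26b1 had 64.8%. Of the other detected genes, Rarb had 58%, Rara 58.8% to 65.2%, Rxra 81.2% and 55.2%, and Rxrb 69.2% and 82.4%.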

How the data were processed

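RNA of sorted cells had been amplified as cDNA (SMART-Seq v4), tagged (Nextera XT) and sequenced as single reads. The authors deposited RPKM values of 6 libraries. Per the labels the processing notes name bcl2fastq 1.8.4, CASAVA 1.8.2 and build mm9; the aligner, the counting program and the treatment of strand and of reads with several hits are not given in the sources used here. In rows of up to 500 bases nearly all values fitted whole reads, scaled to library size, truncated to 2 decimals, divided by length and truncated again. This gave the depth and the reads per row, which serve for precision only, and counting errors cover counting alone. No columns were left out.

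Rows with a mean of at least 1 RPKM were tested with limma 3.58.1 in R 4.3.3 (eBayes with trend, pseudocount 1, threshold of 0.05). The brain was a block, because the study pairs by brain. Libraries with the same replicate number were taken as 1 brain, which the labels do not state. Deviations from the mean of a layer correlated within each such pair (r over rows of 0.422, 0.333 and 0.341). Between brains r was -0.199 to -0.16. Deviations within a layer sum to 0, so these negative values follow from the positive ones and add no evidence. The fit was tested on simulated data. It recovered 0% of 200 changed genes at a log2 change of 0.5, 46% at 1 and 92% at 2. False calls numbered 0 with no change and at 0.5, 2 at 1 and 10 at 2. Tables and figures were made with Python 3.11.15, numpy 2.4.6, pandas 2.3.3 and matplotlib 3.10.9. Members and lists were chosen with earlier results of these data known, and lists were written from general knowledge. Named are all 9 genes, list genes that passed, and in each role the 3 most abundant with a mean of at least 1 RPKM, while any further gene was picked with its values known. Single list genes are counted in the lists but not reported here. There were 12 alternatives: quantile normalization, median centring, no block, omission of each brain, no intensity trend, a pseudocount of 0.1, no filter, a minimum of 5 RPKM, RefSeq rows alone and a correction for mRNA length.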

Additional observations from a re-analysis of the deposited data

How the results depend on the processing

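Of the 9 genes, 0 passed under any of the 12 alternatives. Of 70 values of single genes, 66 kept their direction and 4 reversed it, and the lowest adjusted p was 0.0611, for Rdh10 among RefSeq rows alone. Rara and Rxra were not tested at a minimum of 5 RPKM. The log2 fold change of Rdh10 stayed between 0.38 and 0.57 and that of Aldh1a1 between -0.26 and -0.18. That of Rara ranged from 0.27 after the mRNA length correction to 0.55 with a pseudocount of 0.1. The unadjusted limma p of Rara was 0.116 after the length correction, 0.0722 without the block and 0.0709 with no filter. It was 0.17 without brain 1 and 0.16 without brain 3, and under 0.05 in the other alternatives in which Rara was tested. With 1 brain left out, the log2 fold change ranged from -0.0018 to 0.146 for Rarb, from -0.0077 to 0.149 for Rxra and from -0.381 to 0.061 for Rxrb, and after a correction for mRNA length that of Rxra was -0.072. Longer mRNAs had higher ULA/DLA ratios (Spearman's rho over rows of 0.21, 0.37 and 0.10 for brains 1 to 3). Without the replicate block Rdh10 had an adjusted p of 0.37, and rows passing fell from 100 and 128 (higher in ULAs and DLAs) to 23 and 18. The counts were 0 and 0 with no filter on low RPKM (limma, with 2799 rows at an unadjusted p under 0.05), 63 and 80 after the length correction, 65 and 79 without the intensity trend and 154 and 178 among RefSeq rows alone, and spanned 104 to 426 and 126 to 687 when a single brain was omitted, with the most without brain 3. Of the other pathway genes, 0 passed as higher in DLAs without the block or the filter, where Rpe65 had adjusted p-values of 0.412 and 0.285. Rxra, with 102 to 198 reads per library, is limited most by depth among the genes tested.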

Other observations

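RXRs also pair with receptors for other ligands, and 13 such partners were examined. Of these, 8 had a mean of at least 1 RPKM, and 0 passed in either direction (limma, adjusted p under 0.05), nor did any have an unadjusted p under 0.05. The most abundant were Nr1h2, an oxysterol receptor, with means ± SD of 27 ± 2.04 RPKM (ULAs) and 29.9 ± 7.49 RPKM (DLAs) over 3 brains, Thrb, a thyroid hormone receptor, at 24.5 ± 3.62 and 23.6 ± 3.42 RPKM, and Ppara, a fatty acid receptor, at 11.7 ± 1.10 and 11.1 ± 0.487 RPKM. Like Rxrb, which was at 20.17 and 11.77 RPKM there, Nr1h2 had its highest value (36.77 RPKM) in the DLAs of brain 2 and its lowest (21.90 RPKM) in the DLAs of brain 3.

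Of 16 genes known as targets of retinoic acid in other settings, 10 were under 1 RPKM on average, and Cyp26a1 and Hoxb1 were listed at 0 in all libraries. Of the 6 tested, 0 passed in either direction in limma, and 0 had an unadjusted p under 0.05. Rarres2 had 92.8 ± 13.8 RPKM in ULAs and 101.2 ± 4.25 in DLAs, Dhrs3, which reduces retinal to retinol, 83.9 ± 4.85 and 89.7 ± 12 RPKM, and Meis2, a homeobox factor, 35.8 ± 4.57 and 31.5 ± 6.16 RPKM. Rarres2 overlaps Lrrc61 on the opposite strand, and their reads cannot be told apart without strand.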
